A study of Mus musculus with 6 samples.

Results

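The genes described here encode the antigens and reporter markers by which blood-forming stem cells of the mouse are sorted. The list holds 10 genes set by name: *Kit*, *Ly6a* (Sca1), *Flt3*, *Cd34*, *Cd48*, *Slamf1* (CD150), *Cd9*, *Fgd5*, *Ctnnal1* and *Pdzk1ip1*. Of these, 9 were measured, by 14 of the 34945 probe sets that name a single gene, among 18193 genes in all. No probe set of the annotation table used here names *Ly6a*, which was therefore not analysed. For each gene the probe set with the highest mean over all arrays is given, and the others beside it.

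The arrays held RNA from sorted bone marrow cells that were Flt3-negative, lineage-negative, Sca1-positive and cKit-positive, from mice on a C57BL/6 background. There were 3 Raptor mutant arrays, from mice with both Raptor alleles floxed around exon 6 and the MxCre transgene, and 3 wild type arrays, from mice with the same floxed alleles and no MxCre. Both groups had received pIpC, a synthetic double-stranded RNA that induces interferon, with 3 injections of 15 µg per g of mouse spread over 5 days, and the sort followed after 5 weeks. MxCre is driven by an interferon-responsive promoter that is active in many cell types, so deletion need not be limited to blood cells. Raptor is the subunit that defines the kinase complex mTORC1. Mice with its floxed alleles, the injections and MxCre were thus set against mice with the same alleles and injections but no recombinase. The extent of deletion in the sorted cells was not tested here.

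Stem cells of the mouse marrow are enriched by combining antigens, since none marks them alone. Kit is the receptor for stem cell factor, and Sca1 is a membrane-anchored protein of the Ly6 family that interferon induces. Flt3 is the receptor for Flt3 ligand and appears as multipotent progenitors lose long-term self-renewal, so a Flt3-negative gate holds the more primitive cells. Within such a gate, cells with CD150 and without CD48 are the most enriched for long-term stem cells, CD48 appears on multipotent progenitors, and CD34 is low or absent on adult long-term stem cells. *Fgd5*, *Ctnnal1* and *Pdzk1ip1* became known as stem cell markers through reporter mice, and CD9 as a surface antigen of stem cells and of megakaryocytes.

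Sex-linked genes divided the arrays in part as genotype did, with Y-linked signal on wild type arrays 2 and 3 only. The Y-linked gene *Kdm5d* had a log2 signal of 3.69, 3.79 and 3.88 on mutant arrays 1 to 3, and of 3.60, 10.55 and 9.53 on wild type arrays 1 to 3. *Xist*, the RNA of the inactive X chromosome, stood at 13.37 to 13.40 on mutant arrays, and at 13.46, 8.05 and 5.69 on wild type arrays. Differences between the groups can therefore not be fully told apart from differences of sex. Wild type array 1 was the single control array without Y-linked signal, which all 3 mutant arrays also lacked. Each marker gene is given below also against wild type array 1 alone. *Rptor*, the targeted gene, had a log2 signal of 8.68, 7.99 and 8.32 on mutant arrays and of 8.56, 8.17 and 7.59 on wild type arrays (log2 fold change 0.22 ± 0.29 SE, limma adjusted p = 0.771). Where its probes lie relative to the deleted exon was not analysed, so it checks neither the deletion nor the labels.

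At an adjusted p under 0.05 in limma, fitted over all genes, 0 of the 9 marker genes were called changed, against 0.110% of all genes (20 of 18193). Over all genes 0.0550% were called higher and 0.0550% lower. At an unadjusted p under 0.05 there were 3, *Pdzk1ip1* and *Fgd5* lower and *Cd48* higher in mutant arrays, where 5.81% of all genes were higher and 4.24% lower at that level. The 3 mutant values lay wholly to one side of the 3 wild type values in 2 of 9, *Pdzk1ip1* below and *Cd48* above, where 16.1% of all genes were so separated, 8.08% with mutant above and 7.98% with mutant below. Counting all 14 probe sets, 2 had mutant above and 2 mutant below, where 8.38% and 7.20% of all probe sets did (15.6% together). The median log2 fold change was -0.19 over the 9 genes and -0.07 over all genes, with 6 marker genes below 0 and 3 above, where 59.6% of all genes were below 0 and 40.4% above. The marker median was -0.07 without mutant array 3, 0.02 without wild type array 1 and -0.27 against that array alone, while the all-gene median was -0.07, -0.115 and 0.04 there. In bulk RNA, fewer cells of a type and less of a transcript per cell cannot be told apart. The labels leave unsaid whether an array stands for a single mouse or for pooled mice. The p-values therefore reflect only variation among these 6 arrays, part of which may be technical.

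**Figure D1:**
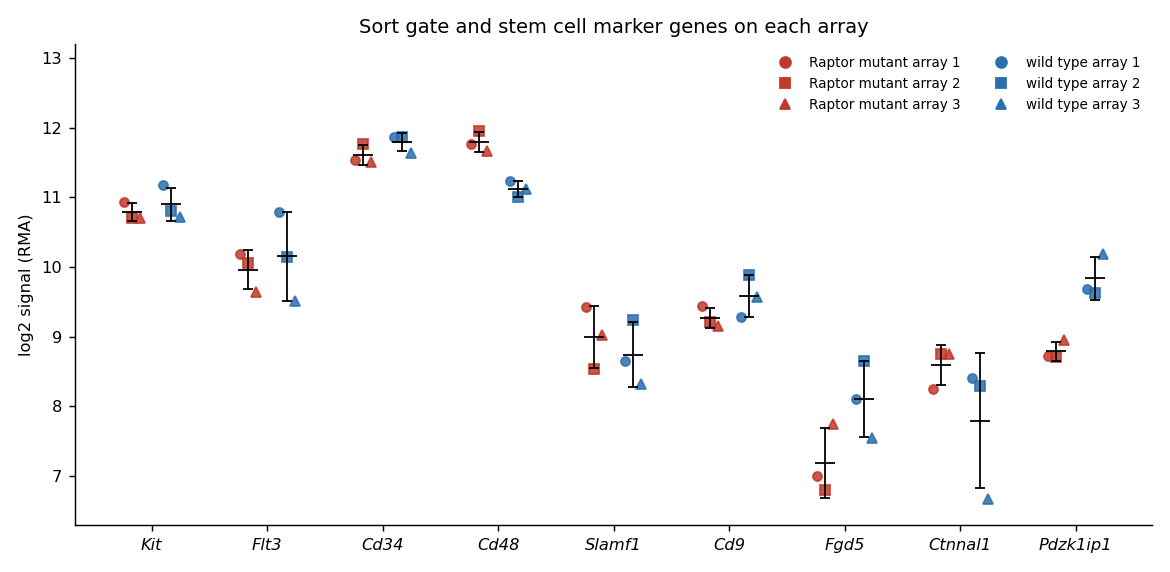
Log2 RMA signal (vertical axis) of the 9 marker genes on the 6 arrays, at the brightest probe set of each; red, Raptor mutant; blue, wild type; black bars, mean and SD of 3 arrays. *Pdzk1ip1* separates with mutant arrays below, between 8.71 and 8.95 against 9.63 to 10.19, and *Cd48* with mutant arrays above, between 11.67 and 11.95 against 11 to 11.24.

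Of the 9 measured marker genes, *Pdzk1ip1* showed the clearest difference, and at both of its probe sets. It encodes a small membrane-associated protein that binds PDZ-domain proteins. At probe set 1455477_s_at it had a log2 signal of 8.72, 8.71 and 8.95 on mutant arrays 1 to 3, and of 9.69, 9.63 and 10.19 on wild type arrays 1 to 3. The highest mutant value lay below the lowest wild type value. Means were 8.79 ± 0.14 in mutant and 9.84 ± 0.31 in wild type arrays (SD, n = 3 each), a log2 fold change of -1.05 ± 0.20 (SE) with a 95% interval of -1.502 to -0.59, or 2.06-fold lower in mutant arrays. The limma adjusted p was 0.147, so it was not called at the threshold.

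The dimmer *Pdzk1ip1* probe set, 1417689_a_at, had values of 8.21, 8.30 and 7.92 on mutant arrays and of 9.45, 9.53 and 9.56 on wild type arrays. These groups also stood apart, with a log2 fold change of -1.37 ± 0.17 (SE) and a limma adjusted p of 0.0838 over all 34945 probe sets, a fit that called 0.0343% of them. With the mean of its probe sets taken for each gene, *Pdzk1ip1* was called lower, with a log2 fold change of -1.21 and a limma adjusted p of 0.0299, in a fit that called 0.159% of genes. Leaving out 1 array at a time gave log2 fold changes of -1.15 to -0.87 at the brightest probe set, and against wild type array 1 as the only control it was -0.90 (limma adjusted p = 0.321). Its neighbour on chromosome 4, *Tal1*, which encodes a transcription factor required to form blood stem cells, had a log2 fold change of -0.02 ± 0.15 (limma adjusted p = 0.966). *Tal1* stood at 9.79 to 9.86 on mutant arrays and at 9.68 to 9.97 on wild type arrays. *Stil*, the gene beyond it, had 0.55 ± 0.18 (SE, log2 fold change, limma adjusted p = 0.375).

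*Cd48* was the marker that stood higher in mutant arrays with no overlap. CD48 is a lipid-anchored receptor of the SLAM family, and sorting schemes use its absence to enrich stem cells. Its single probe set, 1427301_at, read 11.77, 11.95 and 11.67 on mutant arrays and 11.24, 11 and 11.12 on wild type arrays. All 3 mutant values exceeded all 3 wild type values, by means of 11.8 ± 0.15 in mutant and 11.12 ± 0.12 in wild type arrays (SD, n = 3 each). The log2 fold change was 0.68 ± 0.16 (SE), with a 95% interval of 0.31 to 1.05, or 1.60-fold, and the limma adjusted p was 0.218, not past the threshold. It ran from 0.60 to 0.74 with 1 array left out, and was 0.56 against wild type array 1 alone. Its smallest limma adjusted p over the alternatives was 0.0792, with trend and robust fitting.

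The promoter windows of *Pdzk1ip1*, *Cd48* and *Fgd5*, the 3 genes at an unadjusted p under 0.05, are shown for what precedes each start. They are the 250 bases before the annotated start, 5′ to 3′ on the gene's own strand, from RefSeq on GRCm38.p6, which held windows for 9 of the 10 listed genes. They lie at chr4:115088458-115088707, chr1:171681742-171681991 and chr6:91978715-91978964, each on the plus strand. Capitals mark a match to one of 5 motifs searched on both strands: GATAA (GATA factors), TGTGGT (RUNX), GGAAGT (ETS), an interferon response element (GAAA, any 2 bases, GAAA) and CAGCTG (an E-box bound by TAL1).
Pdzk1ip1: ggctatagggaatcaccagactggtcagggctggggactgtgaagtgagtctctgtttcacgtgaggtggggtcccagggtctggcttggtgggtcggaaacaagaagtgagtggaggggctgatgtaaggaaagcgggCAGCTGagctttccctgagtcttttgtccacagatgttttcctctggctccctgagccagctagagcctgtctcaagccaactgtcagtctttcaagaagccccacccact
Cd48: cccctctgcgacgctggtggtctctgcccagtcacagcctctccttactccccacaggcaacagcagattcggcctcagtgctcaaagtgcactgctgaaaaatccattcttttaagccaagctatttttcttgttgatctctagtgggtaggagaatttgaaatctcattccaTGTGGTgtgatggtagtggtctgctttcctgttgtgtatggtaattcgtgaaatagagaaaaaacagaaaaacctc
Fgd5: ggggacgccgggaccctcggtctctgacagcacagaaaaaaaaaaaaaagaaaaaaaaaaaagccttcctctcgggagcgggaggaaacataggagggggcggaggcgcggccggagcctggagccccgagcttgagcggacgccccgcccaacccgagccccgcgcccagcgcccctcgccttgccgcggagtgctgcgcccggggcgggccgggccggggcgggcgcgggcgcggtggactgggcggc

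The *Pdzk1ip1* window held 1 match, to CAGCTG, which 12.8% of 27025 promoter windows hold. The *Cd48* window held 1 match, to TGTGGT, present in 14.2% of windows, and the *Fgd5* window held 0. No matched bases of different motifs overlapped in these windows. The *Fgd5* window was 71.6% G and C with 31 CpG pairs, against medians of 52% and 6 over all windows, while those of *Pdzk1ip1* and *Cd48* held 3 and 4 CpG pairs. GATAA was in 23.0% of all windows and GGAAGT in 5401 of the 27025, and each was in 1 of the 9 marker windows, those of *Slamf1* and *Flt3*. The interferon response element, found in 3.04% of all windows, was in 0 of the 9. A match describes the letters of the window and is no evidence of binding.

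*Fgd5* encodes an exchange factor for the small GTPase Cdc42, and its reporter allele labels long-term stem cells. Its probe set, 1460578_at, had log2 signals of 6.997, 6.80 and 7.75 on mutant arrays and of 8.11, 8.65 and 7.55 on wild type arrays. The groups overlapped, since mutant array 3 lay above wild type array 3. The log2 fold change was -0.92 ± 0.34 (SE; 95% interval -1.71 to -0.13) with a limma adjusted p of 0.444. It moved between -1.21 without mutant array 3 and -0.65 without wild type array 2, and was -0.92 against wild type array 1 alone. Of the other FGD factors, alpha catenins and vinculin, 0 of 9 were called. *Ctnna1*, the alpha catenin of adherens junctions, read 10.88 to 11 on mutant arrays and 10.68 to 10.91 on wild type arrays, a log2 fold change of 0.16 ± 0.15 (limma adjusted p = 0.6998).

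The probe sets of *Ctnnal1*, which encodes a relative of alpha catenin, did not read alike. The brighter, 1420929_at, had 8.26, 8.75 and 8.76 on mutant arrays and 8.41, 8.30 and 6.68 on wild type arrays. The other, 1420930_s_at, had 7.67, 7.77 and 7.83 on mutant arrays and 8.06, 6.67 and 8.59 on wild type arrays. Wild type array 3 was thus the lowest of the 6 at one probe set and the highest at the other. Log2 fold changes were 0.79 ± 0.44 and -0.01 ± 0.45 (SE), with limma adjusted p of 0.586 and 0.994. At the brighter one the value was 0.23 without wild type array 3 and 0.18 against wild type array 1 alone, so wild type array 3 set most of its size.

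Neither measured receptor of the gate itself passed the test. *Kit* at 1452514_a_at read 10.94, 10.71 and 10.71 on mutant arrays and 11.17, 10.81 and 10.72 on wild type arrays. The groups overlapped, with a log2 fold change of -0.11 ± 0.18 (SE), a 95% interval of -0.53 to 0.30 and a limma adjusted p of 0.814. Its other probe set, 1415900_a_at, gave -0.12 ± 0.22, from values of 9.84 to 10.13 on mutant arrays and 9.70 to 10.46 on wild type arrays. At the brighter probe set wild type array 1 was the highest of the 6. There the log2 fold change was 0.02 without that array and -0.38 against it alone. At the other probe set wild type array 2 was the highest, at 10.46, and wild type array 1 read 10.03.

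*Flt3*, whose protein the sorted cells lacked at their surface, had a clear signal on every array. Its probe set, 1419538_at, read 10.18, 10.06 and 9.64 on mutant arrays and 10.79, 10.15 and 9.51 on wild type arrays, at percentiles 80.0 to 91.2 of all gene-naming probe sets. A percentile depends on how well each probe hybridises, so it is not an amount of transcript, and RNA does not measure the surface protein. The log2 fold change was -0.19 ± 0.32 (SE; 95% interval -0.93 to 0.56, limma adjusted p = 0.827). The wild type arrays spanned more than the mutant arrays, with an SD of 0.64 against 0.28 in mutant arrays. Without wild type array 1 the log2 fold change was 0.13, and with that array as the only control it was -0.82 (limma adjusted p = 0.423), so its sign depended on that array.

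Genes that accompany Flt3 in multipotent and lymphoid-primed progenitors gave 0 calls among 14 measured, *Flt3* included, and 1 at an unadjusted p under 0.05. Their median log2 fold change was -0.22, against -0.07 over all genes, with 9 below 0 and 5 above. With 1 array left out the median ran from -0.46 (without mutant array 1) to -0.11 (without mutant array 2). *Satb1*, a chromatin organiser of lymphoid cells, read 9.48, 8.70 and 8.41 on mutant arrays and 9.81, 9.59 and 9.64 on wild type arrays (log2 fold change -0.81 ± 0.27, limma adjusted p = 0.396). *Dntt*, the terminal transferase of early lymphoid cells, read 10.43, 8.44 and 8.46 on mutant arrays and 9.43, 11.47 and 9.40 on wild type arrays. Mutant array 1 and wild type array 2 were the high ones for *Dntt*, and the groups overlapped. *Cd52* and *Ccr9* had log2 fold changes of -0.43 and 0.28 (limma adjusted p = 0.567 and 0.644).

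The kinases most closely related to Kit and Flt3 gave 0 calls among the 7 measured genes of class III receptors and their ligands. *Csf1r*, the receptor of macrophage colony-stimulating factor, read 9.01, 8.46 and 8.71 on mutant arrays and 8.27, 5.90 and 7.84 on wild type arrays, without overlap. Its log2 fold change was 1.39 ± 0.55 (SE, limma adjusted p = 0.469), with wild type array 2 far below the other wild type arrays. *Kitl*, the ligand of Kit, stood between 5.01 and 5.19 on mutant arrays and between 5.28 and 5.51 on wild type arrays, close to the lower quartile of the arrays (5.15 to 5.37). The neighbours of *Kit* on chromosome 5, *Pdgfra* and *Kdr*, had log2 fold changes of 0.07 and -0.11 (limma adjusted p = 0.895 and 0.815).

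*Cd34* encodes a sialomucin of progenitor and endothelial surfaces, and was bright on all arrays. Probe set 1416072_at read 11.54, 11.77 and 11.51 on mutant arrays and 11.87, 11.87 and 11.64 on wild type arrays. Mutant array 2 lay above wild type array 3, so the groups overlapped. The log2 fold change was -0.19 ± 0.16 (SE), with a 95% interval of -0.56 to 0.18 and a limma adjusted p of 0.681. It was -0.27 against wild type array 1 alone and lay between -0.27 and -0.14 under every alternative tried.

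*Slamf1*, the gene of CD150, was read by 3 probe sets, all with positive log2 fold changes and 0 called. The brightest, 1425569_a_at, had 9.42, 8.53 and 9.03 on mutant arrays and 8.65, 9.24 and 8.33 on wild type arrays, which overlapped (0.25 ± 0.30 SE, limma adjusted p = 0.756). Probe set 1425571_at had 9.10, 8.89 and 8.85 on mutant arrays and 8.44, 8.49 and 8.83 on wild type arrays, and here mutant array 3 stood just above wild type array 3, so the groups did not overlap. Its log2 fold change was 0.36 ± 0.18 (SE, limma adjusted p = 0.574 over all probe sets). The dimmest, 1425570_at, gave 0.35 ± 0.36 (SE), with mutant array 3 at 8.73 and the other arrays between 7.12 and 7.90. At the brightest the value was 0.04 without mutant array 1, 0.05 without wild type array 3 and 0.50 without wild type array 2, and 0.34 against wild type array 1 alone.

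Several receptors of the SLAM family lie beside *Cd48* and *Slamf1* on chromosome 1. Of 9 measured members of the family, *Cd48* and *Slamf1* included, 0 were called, and their median log2 fold change was 0.07, with 5 above 0 and 4 below. That median was -0.11 without mutant array 1, -0.21 without wild type array 1 and -0.04 without wild type array 2, so its sign turned on single arrays. *Cd244a*, which encodes the receptor that binds CD48, read 11.04, 10.61 and 10.72 on mutant arrays and 11.25, 11.18 and 11.40 on wild type arrays. Mutant values lay below wild type values, opposite to *Cd48*, with a log2 fold change of -0.49 ± 0.17 (SE, limma adjusted p = 0.428). *Slamf7*, next to *Cd48*, had 0.40 ± 0.18 (limma adjusted p = 0.517) and no overlap. *Ly9* had 0.23 (limma adjusted p = 0.707), *Cd84*, on the other side of *Slamf1*, -0.33 (limma adjusted p = 0.637), and *Slamf6* -0.30 (limma adjusted p = 0.585).

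*Cd9* encodes a tetraspanin, a membrane protein that organises receptors and integrins. Probe set 1416066_at read 9.44, 9.22 and 9.16 on mutant arrays and 9.29, 9.89 and 9.57 on wild type arrays, with wild type array 1 below mutant array 1. The log2 fold change was -0.31 ± 0.20 (SE; 95% interval -0.77 to 0.14, limma adjusted p = 0.620). It was -0.46 without wild type array 1 and -0.02 against that array alone. *Vwf*, the next gene on chromosome 6, which encodes von Willebrand factor and marks platelet-primed stem cells, read 8.18, 7.77 and 7.83 on mutant arrays and 8.92, 9.11 and 8.62 on wild type arrays. It stood apart by -0.96 ± 0.20 (SE, log2 fold change, limma adjusted p = 0.157).

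Of 17 tetraspanins measured, *Cd9* included, 0 were called, with 8 above 0, 9 below and a median log2 fold change of -0.07, which ran from -0.14 (without wild type array 1) to 0.095 (without wild type array 2). *Cd37*, a tetraspanin of blood cells, read 10.33, 10.36 and 10.87 on mutant arrays and 9.02, 9.93 and 9.84 on wild type arrays (0.92 ± 0.28, limma adjusted p = 0.338). *Tspan14* read 9.78, 10.09 and 9.74 on mutant arrays and 10.50, 10.44 and 10.48 on wild type arrays (-0.61 ± 0.16, limma adjusted p = 0.261). *Tspan13* and *Tspan6* had -0.39 and -0.70 (limma adjusted p = 0.455 and 0.452). *Cd81*, a widely expressed tetraspanin, stood at 12.06 to 12.20 on mutant arrays and 11.93 to 12.19 on wild type arrays (0.04 ± 0.15, limma adjusted p = 0.936).

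**Figure D2:**
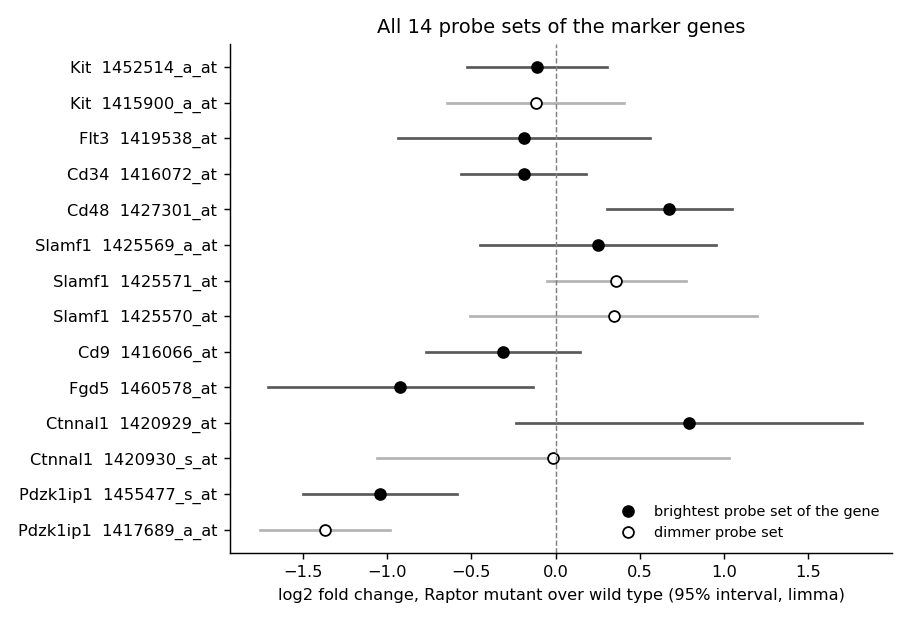
Log2 fold change of Raptor mutant over wild type (horizontal axis) with its 95% interval from limma, for each of the 14 probe sets of the 9 marker genes; filled points, brightest probe set of a gene; open points, dimmer ones. Both *Pdzk1ip1* probe sets, *Cd48* and *Fgd5* have intervals that leave out 0, before any adjustment over genes, and the pair for *Ctnnal1* disagrees (0.79 and -0.01).

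*Ly6a* aside, 9 other genes of the Ly6 family, the related *Cd59a* among them, were measured and 0 were called, with a median log2 fold change of -0.13. That median ran from -0.31 (without wild type array 1) to -0.05 (without wild type array 3) with 1 array left out, and was 0.14 against wild type array 1 alone. *Ly6e*, an interferon-induced member, read 12.50 to 12.62 on mutant arrays and 12.57 to 12.62 on wild type arrays, a log2 fold change of -0.05 ± 0.14 (limma adjusted p = 0.890). Of 23 interferon-stimulated genes, *Rsad2*, an antiviral enzyme, was called, and fell by 1.43 ± 0.16 on the log2 scale (limma adjusted p = 0.0299). *Ifit1*, *Ifi27l2a* and *Ifitm1* had log2 fold changes of -1.22, -1.30 and 0.54 and were not called (limma adjusted p = 0.194, 0.294 and 0.310). The list's median was -0.09, with -0.27 without wild type array 2, -0.21 without mutant array 3, -0.04 without mutant array 2 and -0.44 against wild type array 1 alone.

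Other stem cell surface genes included 2 that passed the test, of 26 measured, both lower in mutant arrays. *Tek*, the angiopoietin receptor of stem and endothelial cells, read 8.57, 8.74 and 8.70 on mutant arrays and 10.23, 9.93 and 10.30 on wild type arrays, and fell by 1.48 ± 0.17 (SE, log2; limma adjusted p = 0.0299). *Clec1a*, a lectin-like receptor, read 5.88, 5.92 and 5.50 on mutant arrays and 7.69, 8.05 and 7.86 on wild type arrays, and fell by 2.10 ± 0.19 (SE, log2; limma adjusted p = 0.0134). *Alcam*, an adhesion molecule of stem and stromal cells, stood apart at 9.57, 9.28 and 9.10 on mutant arrays and at 10.48, 10.57 and 10.49 on wild type arrays, with a log2 fold change of -1.20 ± 0.17 (limma adjusted p = 0.0782). *Robo4*, a guidance receptor of stem and endothelial cells, had -2.08 ± 0.37 (limma adjusted p = 0.136).

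Of the 26 stem cell surface genes, 12 had a log2 fold change above 0 and 14 below, around a median of -0.03 that ran from -0.12 (without mutant array 3) to 0.02 (without wild type array 1), and 2 genes were higher and 7 lower at an unadjusted p under 0.05, where the shares over all genes were 5.81% higher and 4.24% lower. The 2 higher were *Itgb3*, an integrin of platelets, and *Selp*, P-selectin, with log2 fold changes of 0.72 and 1.18 (limma adjusted p = 0.336 and 0.403). Of 19 stem cell reporter and regulator genes, *Mmrn1*, a multimerin of platelets and endothelium, was called and fell by 2.30 ± 0.22 (SE, log2; limma adjusted p = 0.0192). *Mecom* and *Hlf*, transcription factors of long-term stem cells, had log2 fold changes of -0.996 and -0.81 and separated groups (limma adjusted p = 0.117 and 0.147). The median of that list was -0.30, with 13 of 19 below 0, and it was -0.18 without mutant array 1, -0.31 without wild type array 1 and -0.62 against wild type array 1 alone.

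**Figure D3:**
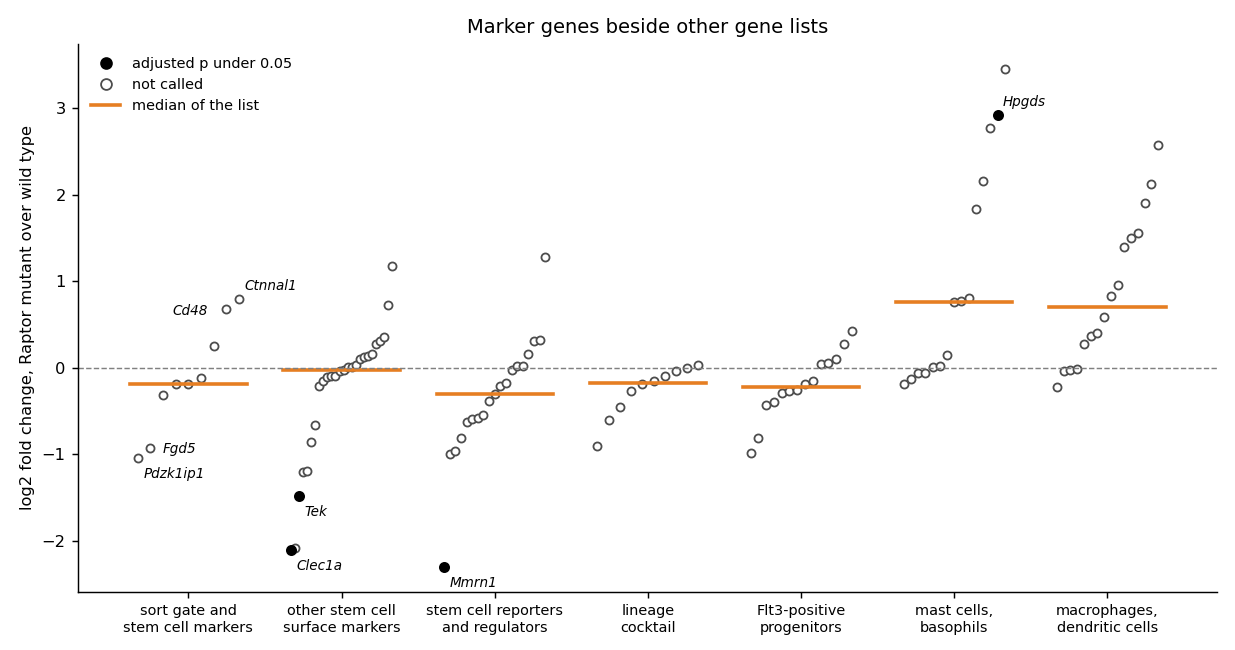
Log2 fold change of Raptor mutant over wild type (vertical axis) for each measured gene of 7 lists, sorted within a list; filled points, adjusted p under 0.05 in limma over all genes; orange bars, list medians. The sort gate and stem cell markers (median -0.19) hold no called gene, while other stem cell lists hold *Tek*, *Clec1a* and *Mmrn1*, and the mast cell list holds *Hpgds*.

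Of the antigens that lineage antibody cocktails target, 10 genes were measured and 0 were called. *Ptprc* made up 85.8 to 89.8% of the list's summed linear signal on mutant arrays and 82.3 to 89.1% on wild type arrays, so that sum is no measure of lineage cells. Its product CD45 is found on nearly all blood cells, and B cells display its B220 form. *Ptprc* read 11.36 to 11.87 on mutant arrays and 11.52 to 11.93 on wild type arrays. The other 9 lay between 4.08 and 6.55 on mutant arrays and between 3.925 and 7.10 on wild type arrays, and their summed signal was 8.73 to 8.80 (log2) on mutant arrays and 8.87 to 9.30 on wild type arrays. Of the 10, 8 lay below the median of all probe sets on every array, and *Cd2* exceeded it on wild type array 3 only, at 7.10. *Itgam*, the CD11b chain of myeloid cells, stood at 5.21, 5.35 and 5.29 on mutant arrays and at 6.50, 5.58 and 6.49 on wild type arrays (log2 fold change -0.90 ± 0.26, limma adjusted p = 0.310). The T cell antigens *Cd2*, *Cd4* and *Cd3e* had log2 fold changes of -0.61, -0.27 and -0.46 (limma adjusted p = 0.580, 0.659 and 0.729).

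Markers of other blood cells are given beside those of stem cells, for the whole of each list. Of 15 genes of mast cells, which also carry Kit, and of basophils, the prostaglandin synthase gene *Hpgds* was called. It rose by 2.92 ± 0.21 (SE, log2, limma adjusted p = 0.00707). *Ms4a2* and *Fcer1a*, chains of the IgE receptor, and the chymase gene *Cma1* had log2 fold changes of 2.77, 3.45 and 2.15 (limma adjusted p = 0.0722, 0.0992 and 0.138). Of the 15 genes, 11 had a log2 fold change above 0 and 4 below. The list's median was 0.76, with 0.49 without wild type array 1, 0.51 without wild type array 2 and 0.34 against wild type array 1 alone. Its summed signal was 14.16 to 14.51 (log2) on mutant arrays and 13.94 to 14.06 on wild type arrays. *Srgn* was the brightest in that sum, at 12.82 to 13.01 on mutant arrays and 12.93 to 13.14 on wild type arrays. *Gata2* came next, at 12.01 to 12.33 and 12.01 to 12.27. *Gata2* is also among the stem cell regulators, so the sum is no measure of mast cells alone. Of 16 macrophage and dendritic cell genes 0 were called, with 12 above 0, 4 below and a median of 0.71. Their summed signal was 12.81 to 13.85 on mutant arrays and 11.68 to 12.17 on wild type arrays. The MHC class II gene *H2-Ab1* was the brightest in that sum, at 11.11 to 12.22 on mutant arrays and 10.28 to 10.99 on wild type arrays. Of the 16 genes, 6 lay below the median of all probe sets on every array. The 4 below 0 were *Adgre1*, *Vcam1*, *Siglech* and *Cx3cr1* (-0.22, -0.04, -0.03 and -0.01). The sum is therefore no measure of macrophages alone. *Cd68*, *C1qb*, *H2-Aa* and *Cd74* had log2 fold changes of 1.498, 2.57, 2.13 and 1.90 there (limma adjusted p = 0.0784, 0.0992, 0.103 and 0.176).

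Of 11 neutrophil genes measured, all 11 had a log2 fold change below 0, with a median of -2.06. *Camp* and *Chil3* were called lower, and *S100a8* and *S100a9* had log2 fold changes of -3.13 and -2.87 (limma adjusted p = 0.0729 and 0.0986). *Camp*, the cathelicidin of neutrophil granules, fell by 3.81 ± 0.42 and *Chil3*, a chitinase-like protein, fell by 2.68 ± 0.33 (SE, log2; limma adjusted p = 0.0299 and 0.0431). The summed signal was 11.09 to 12.56 on mutant arrays and 14.24 to 14.78 on wild type arrays. The part of these cell types in the values of *Cd48*, *Kit*, *Cd9* and *Pdzk1ip1* was not tested.

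Committed myeloid progenitor genes gave 0 calls among 10, with a median of 0.28 and 9 above 0. *Cebpa*, a transcription factor of granulocyte and monocyte progenitors, read 10.38, 9.86 and 10.23 on mutant arrays and 9.32, 9.23 and 9.34 on wild type arrays (0.86 ± 0.18, limma adjusted p = 0.165). *Elane* and *Ctsg*, proteases of early granules, had -0.59 and 0.39 (limma adjusted p = 0.492 and 0.524). Erythroid genes (11 measured), megakaryocyte genes (12), B cell genes (10) and genes of endothelium and stroma (13) held 0 calls each, with medians of 0.20, -0.27, -0.17 and -0.05. With 1 array left out the erythroid median ran from -0.12 (without wild type array 1) to 0.49 (without mutant array 2), and it was close to 0 without mutant array 1 or 3. The B cell median was -0.34 without wild type array 1 and 0.09 against it alone, the endothelial and stromal median ran from -0.16 (without mutant array 1) to 0.09 (without wild type array 3), and the megakaryocyte median was -0.17 against wild type array 1 alone. The 12 T and NK cell genes had a median of 0.08, which ran from -0.10 to 0.20 with 1 array left out. Of these, *Gzmb*, a cytotoxic protease, was called and rose by 4.21 ± 0.38 (SE, log2, limma adjusted p = 0.0134). *Cd4*, *Nkg7* and *Cd247* had -0.27, 0.23 and 0.19 (limma adjusted p = 0.659, 0.665 and 0.690). The megakaryocyte gene *Pf4* had -1.73 (limma adjusted p = 0.143), while *Itgb3* and *Selp* of the same list had 0.72 and 1.18. That list held 4 genes above 0 and 8 below. The B cell gene *Cd79b* had -0.62 (limma adjusted p = 0.5001). The endothelial mucin *Emcn* had -1.19 and the stromal gene *Sparc* 1.35 (limma adjusted p = 0.345 and 0.355), in a list with 5 genes above 0 and 8 below. The 4 erythroid genes with the smallest p were *Car2*, *Tfrc*, *Klf1* and *Slc4a1*, with log2 fold changes of -0.60, 0.46, 0.63 and -0.31 (limma adjusted p = 0.282, 0.501, 0.544 and 0.558).

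The marker genes varied more among wild type than among mutant arrays in 7 of 9 cases. Their median SD was 0.15 among mutant and 0.31 among wild type arrays, close to the medians over all genes of 0.16 among mutant and 0.29 among wild type arrays. The exceptions were *Cd34* and *Cd48*. Over the alternatives tried, the sign of the fold change turned for *Kit* and *Flt3*, each without wild type array 1. It turned for no other of the 9 genes, as the plot of settings shows. Arrays were left out at the brightest probe set of each gene only.

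**Figure D4:**
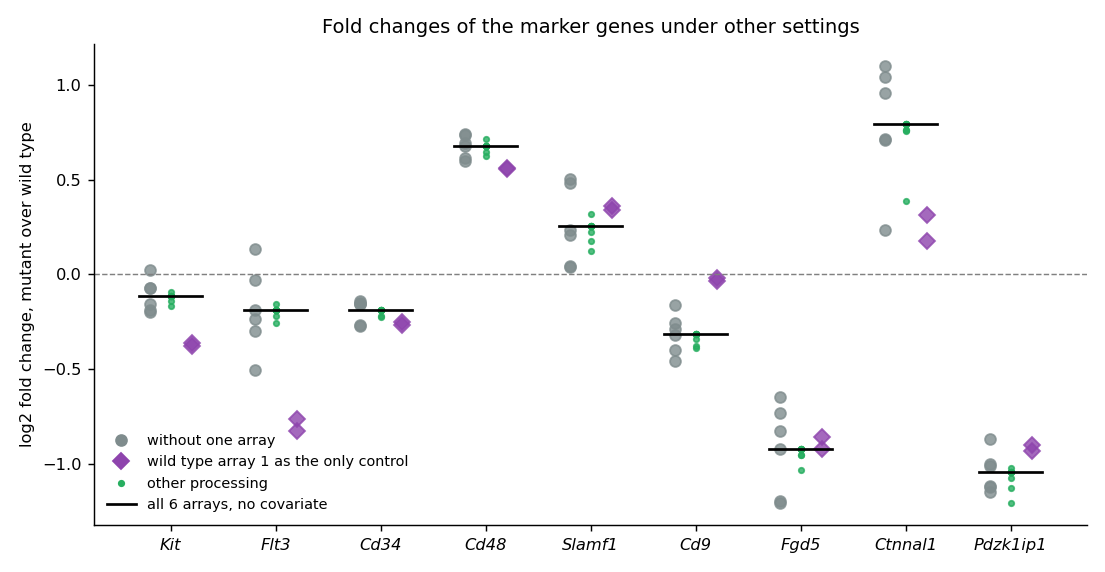
Log2 fold change of Raptor mutant over wild type (vertical axis) of each marker gene under the alternatives. Grey marks 1 array left out, green other processing, and the black bar all 6 arrays without covariate. Purple marks wild type array 1 as the only control, with the other control arrays left out, and also a Y-linked covariate fitted over all 6 arrays. *Flt3* runs from -0.82 to 0.13 and *Ctnnal1* from 0.18 to 1.10, while *Pdzk1ip1* stays between -1.21 and -0.87 and *Cd48* between 0.56 and 0.74.

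Among 4989 genes with a mean log2 signal of at least 7 and an SD of at least 0.3, the genes whose pattern over the 6 arrays was most like each marker were found by Pearson's r. *Kit* was most like *Hcfc1r1* (r = 0.9761) and *Zfp329* (0.9640). *Flt3* was most like *Wdr13* (r = 0.9877) and *Hnrnpul2* (0.9854). *Cd34* was most like *Hk3* (r = 0.9838) and *Rrnad1* (0.9590). *Cd48* was most like *Fuom* (r = 0.9996) and *Nup205* (0.9934). *Slamf1* was most like *Gm5785* (r = 0.9605) and *1110019D14Rik* (0.9573). *Cd9* was most like *Commd10* (r = 0.9876) and *Cirbp* (0.9852). *Fgd5* was most like *Shisa5* (r = 0.9915) and *Slain1* (0.9914). *Ctnnal1* was most like *1700066M21Rik* (r = 0.9938) and *Hoxb5os* (0.9902). *Pdzk1ip1* was most like *Dnajb5* (r = 0.9847) and *Pglyrp1* (0.9820). Best matches of the 9 markers ran from 0.9605 to 0.9996, and the median best match over all 18193 genes was 0.9894. Of the 9 markers, 3 had a best match above that median. The values are a description of 6 arrays.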

How the data were processed

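Gene expression was measured on 6 single-colour arrays, 3 Raptor mutant and 3 wild type, from biotin-labelled RNA amplified with the Ovation Pico WTA system, per the labels' protocols. The deposited values are 1 intensity per probe set, made by the authors with RMA per the submitters' processing notes, with version and settings not given in the sources used here. Deposited intensity values are linear, from 7.6 to 33795, and log2 was taken here. Array data carry no read depth, and the number of arrays limits the precision. Array medians were 115 to 123, linear.

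Of 45101 probe sets, 64 were controls, 9160 named no gene in the platform annotation, 932 named several and 34945 named 1. Of those naming 1, 34741 matched the GRCm38.p6 gene table by Entrez identifier, and 0 symbols needed an update. Each of 18193 genes is represented by its brightest probe set over the 6 arrays. The comparison of mutant with wild type used lmFit and eBayes of limma 3.58.1 under R 4.3.3, without trend, robust fitting or covariate, with two-sided p-values adjusted by Benjamini-Hochberg over all genes and an adjusted p under 0.05 as the threshold. SE and 95% intervals are limma's. Dimmer probe sets were adjusted over all 34945. The procedure was tested on simulated data. Members and lists were chosen with earlier results of these data known. Named genes are the listed markers, up to 4 genes of each list with the smallest p and every called list gene. Family partners of a marker and the 2 genes most like each marker are named too. The chromosomal neighbours *Stil*, *Tal1*, *Pdgfra*, *Kdr* and *Cd84* were added after their values were seen. So were *Ptprc*, *Srgn*, *Gata2*, *H2-Ab1*, *Adgre1*, *Vcam1*, *Siglech* and *Cx3cr1*. Replicate numbers are not known to pair the arrays. Deviations of same-numbered arrays from their group means correlated at 0.184, -0.0258 and 0.0631 across genes. Those of differently numbered arrays correlated at -0.156 to 0.0941. Such correlations cannot decide whether arrays were prepared in pairs. Alternatives were the replicate block, other normalizations, probe set rules, filters on the lower 25% or 50% of genes, trend and robust fitting, array weights, a Y-linked covariate, an adjusted p under 0.10 and leaving out arrays. List medians with 1 array left out, or against wild type array 1 alone, were added after seeing the data.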

Additional observations from a re-analysis of the deposited data

How the results depend on the processing

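Over 18 alternatives, 0 marker genes were called in limma except when probe sets were averaged per gene, where 1 was called, *Pdzk1ip1* (log2 fold change -1.21). Between 2 and 3 of them had an unadjusted p under 0.05 in each. Of 153 log2 fold changes of marker genes under the alternatives, 150 kept their direction and their side of the threshold, 1 passed it, and 2 changed sign, both without wild type array 1. Many of these directions were fixed in advance. The replicate block, separate testing of probe sets, the filters and trend and robust fitting leave the fold change itself unaltered. So does averaging for genes with a single probe set. Only the p-value could move there, so the count is no measure of robustness. Leaving out 1 array gave -0.506 to 0.131 for *Flt3* and -0.201 to 0.0215 for *Kit*. Over all genes, 20 calls became 10 with the replicate block, 12 when each probe set was tested separately, 40 with trend and robust fitting, 8 with array weights and 49 at an adjusted p under 0.10. They became 0 with a Y-linked covariate and 0 with wild type arrays 2 and 3 left out, fits that rest on 1 control array. Leaving out 1 array gave 5 calls (without wild type array 3) to 31 (without wild type array 1). With the replicate block 0 marker genes were called, and the labels' numbers are not known to pair the arrays. The wider spread of the wild type arrays limits what differences could be detected, and probe sets without a gene name were not used.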
